A study of Mus musculus with 48 samples.

Results

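The genes that encode the machinery of oxidative phosphorylation were followed in 48 single cells of the mouse aorta-gonads-mesonephros region, where the first blood stem cells of the embryo arise. Members were taken by symbol among the protein-coding genes of the GENCODE M21 annotation: the Ndufa, Ndufb, Ndufc, Ndufs and Ndufv genes, Sdha to Sdhd, the Uqcr, Cox4 to Cox8 and Atp5 genes, Cycs, and the 13 protein-coding genes of the mitochondrial genome. Of 108 such genes, 104 had a row in the tables, out of 21435 genes in all, and 91 of these are nuclear. A mean of at least 0.1 reads per 10000 over the 48 cells was reached by 98 members and by 8695 genes of the whole tables. The members without a row were Cox6a2, Cox7b2, Cox8c and a duplicate entry of Atp5o. The rows under the minimum were those of Cox6b2, Cox7a1, Cox8b, Ndufa4l2, Atp5s and Ndufaf5.

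The respiratory chain is built from complexes I to IV in the inner mitochondrial membrane, which pass electrons from NADH and succinate to oxygen and pump protons, and complex V, the ATP synthase, uses the proton gradient to make ATP. Most subunits are encoded in the nucleus and imported, while a small set of hydrophobic core subunits is transcribed from both strands of the mitochondrial DNA as long precursors that are cut at tRNAs. Endothelial cells are known to rely strongly on glycolysis, and respiration is known to gain weight as blood stem cells differentiate.

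The cells came from wild-type C57 embryos at embryonic day 10 and were sorted by FACS, with nothing in the sources used here on the gate or on the animals. By title, 24 cells are AEC and 24 are HEC, names that in this field stand for arterial and hemogenic endothelial cells. For HEC cells a tag names hematopoietic stem cells as the cell type instead. Both groups share genotype, stage, tissue, the polyA-selected full-length cDNA protocol and the Nanopore PromethION instrument. With no animal named, each group is 1 sample: no test of a difference could be made, and an SD given here describes the spread between cells.

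Depth ran from 13261 to 4883854 reads in AEC cells and from 96410 to 8897958 reads in HEC cells, and 6 AEC cells and 1 HEC cell held under 100000 reads. Levels are reads per 10000 reads of the cell. The 5 endothelial markers used, Cdh5 and Kdr among them, summed to 0.608 to 44.5 in AEC cells, with a median of 17.8, and to 1.97 to 30.1 in HEC cells. All 8 arterial markers had a lower mean in HEC cells and all 6 hemogenic markers a higher mean. AEC 11, AEC 19, AEC 20 and HEC 20 were poor in Cdh5 and Kdr, and the 7 mesenchymal markers summed to 94.6, 147 and 146 in those AEC cells against a median of 3.40 over AEC cells and a highest HEC cell of 31.3. Erythroid markers summed to 6.34 to 136 in AEC cells and 16.8 to 123 in HEC cells, with medians of 9.26 and 26.4. For this sum 16 AEC cells lay below every HEC cell. Macrophage markers summed to at most 0.754 and 3.71. Neural, epithelial and muscle markers reached at most 4.74, 3.49 and 0.453 in AEC cells and 2.96, 3.68 and 0.237 in HEC cells. The part of these cell types in the results was not tested. The annotated transcripts that the reads of AEC 20, AEC 22, AEC 23 and AEC 24 were given to had a mean length under 2000 bases, as in no other cell.

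The mean over cells of mitochondrially encoded RNA was similar in both groups, but with a far wider spread among AEC cells. The 13 genes summed to a lowest, median and highest value of 122, 328 and 1065 reads per 10000 in AEC cells and 262, 455 and 650 in HEC cells. The means were 397 (SD 229) and 443 (SD 87.4), so the difference was well inside the spread of AEC cells, with a log2 ratio of the HEC to the AEC mean of 0.16. Of the AEC cells, 10 lay below the lowest HEC cell and 5 above the highest, with AEC 5 at the bottom and AEC 17 at the top. The coefficient of variation was 57.7% in AEC cells and 19.7% in HEC cells. Without the cells under 100000 reads the log2 ratio of the means was 0.00, without the cells of short annotated reads it was 0.34, and with median-of-ratios scaling it was -0.20. The medians over cells gave 0.47, and all reads pooled gave 343 reads per 10000 in AEC cells (95% Poisson interval 343 to 344) and 460 in HEC cells (459 to 460), a log2 ratio of 0.42. The size and the direction of the difference thus rest on the scaling, the cells used and the weight given to each cell.

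The nuclear members went slightly the other way. Their sum was 126, 262 and 461 reads per 10000 in the lowest, median and highest AEC cell and 177, 237 and 288 in HEC cells. The means of 287 (SD 80.3) and 241 (SD 25.6) differed by less than the SD between AEC cells. The groups overlapped in most cells: 10 AEC cells lay above the highest HEC cell and 1, AEC 8, below the lowest. AEC 8 also gave 3487 reads per 10000 to the ribosomal RNA locus CT010467.1, against a median of 449 over AEC cells. Pooled over all reads of a group, the nuclear members took 266 reads per 10000 in AEC cells (95% Poisson interval 265 to 267) and 226 in HEC cells (226 to 227), intervals that cover counting error only.

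The ratio of the mitochondrially encoded sum to the nuclear sum is free of the scaling of the cell. It was 0.518, 1.14 and 2.79 in the lowest, median and highest AEC cell and 0.988, 1.88 and 2.56 in HEC cells. HEC cells thus lay mostly above the AEC median, and 9 AEC cells lay below the lowest HEC cell, while AEC 14 and AEC 17 lay above the highest. The medians without the cells under 100000 reads were 1.37 in AEC cells and 1.89 in HEC cells, and without the 4 cells poor in Cdh5 and Kdr 1.03 and 1.89. The means of 1.37 (SD 0.621) and 1.86 (SD 0.410) differed by less than the spread of AEC cells.

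**Figure D1:**
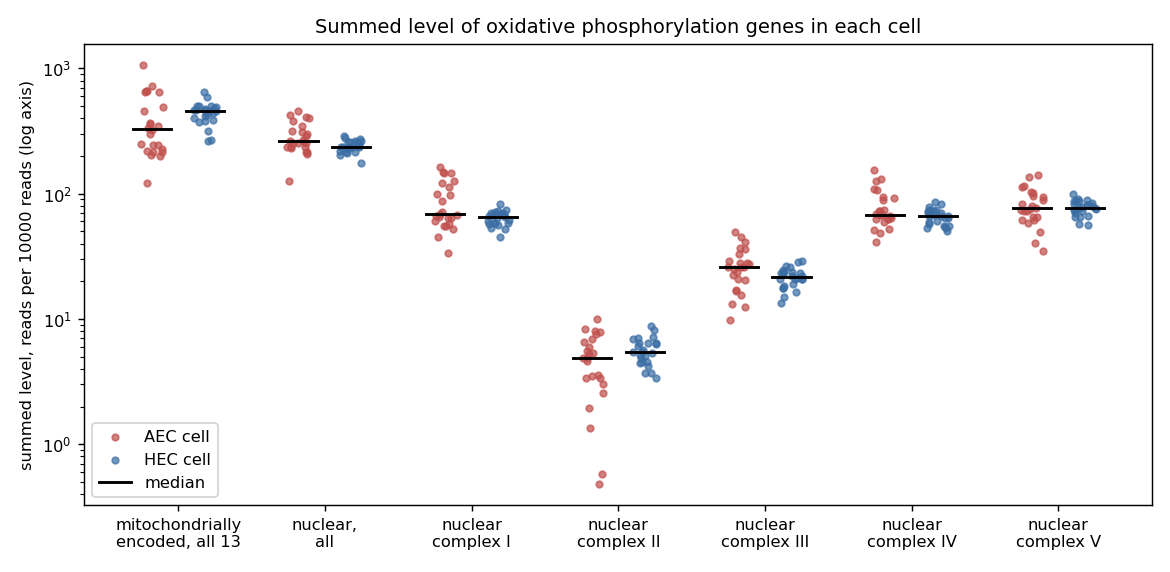
Summed level of the members in each cell in reads per 10000 reads (log axis), for the 13 mitochondrially encoded genes, all nuclear members and the nuclear members of complexes I to V; each point is a cell and the black bar is the median of the 24 cells of a group. The AEC cells spread further in every set than the HEC cells, and the medians lie close together except for the mitochondrially encoded genes, at 328 and 455.

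Among AEC cells the sums varied together, with a Spearman correlation between the mitochondrially encoded and the nuclear sum of 0.64 over 24 cells, against 0.02 over the 24 HEC cells. Values of a cell share its library and its total of 10000, which bears on any such correlation. Both sums were higher in AEC cells whose other reads fell on shorter annotated transcripts, with Spearman correlations to that mean length of -0.60 for the nuclear sum and -0.66 for the mitochondrially encoded sum. In HEC cells these were -0.75 and -0.08. The mean length of the other reads ran from 1860 to 2719.5 bases in AEC cells and from 2103 to 2499 bases in HEC cells, and its part in the levels was not tested.

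**Figure D2:**
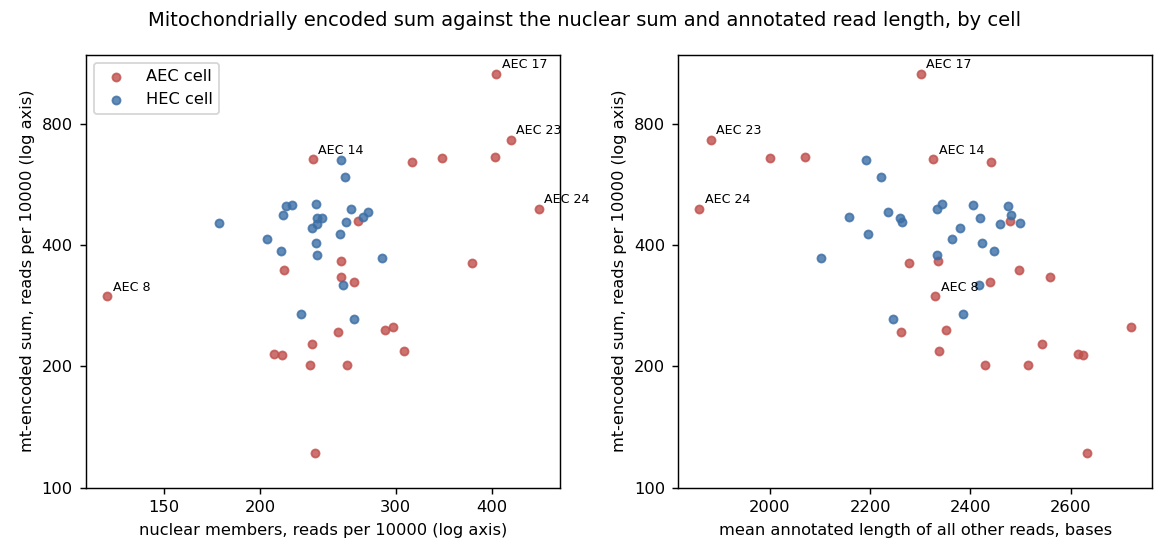
Mitochondrially encoded sum in each cell (log axis) against the nuclear sum (left, log axis) and against the mean annotated transcript length of all reads outside the members (right, bases); red points are AEC cells, blue points HEC cells, and some AEC cells are named. AEC cells run from low on both sums to high on both, and the cells of shortest reads, AEC 23 and AEC 24, are high on both.

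Gene by gene, the members showed few large differences between the groups. The log2 ratio used for genes compares the HEC mean with the AEC mean after adding 0.1 to both, which understates the ratio of low genes. It was above 0 for 39 of the 98 members, where 52.4% of all 8695 genes were above 0, and below 0 for 59, where 47.6% of all genes were. At least 1.5-fold higher in HEC cells were 7 members, against 19.3% of all genes, and at least 1.5-fold lower were 15, against 19.3%. The means lay further apart than the larger of both SDs for 2 members, mt-Nd6 and Atp5c1, both higher in HEC cells, against 1.82% of all genes in that direction. This held for 0 members in the lower direction, against 0.046%.

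The median log2 ratio was 0.04 over all genes, -0.22 over the 85 nuclear members and 0.34 over the 13 mitochondrially encoded ones. Median-of-ratios scaling moved the median of all genes by -0.25, to -0.21, and gave -0.58 for the nuclear and -0.02 for the mitochondrially encoded members, which turned the direction of the latter but left it 0.22 above 0 relative to that shift. With the median over cells in place of the mean, the nuclear members came to 0.12, the mitochondrially encoded ones to 0.48 and all genes to 0.59. Both sets of members then lay below all genes. By complex, the nuclear medians were -0.32 for the 36 members of complex I, 0.45 for the 4 of complex II, -0.14 for the 8 of complex III, -0.18 for the 13 used of complex IV and -0.04 for the 16 used of complex V. Counts of HEC cells above the AEC median are given below for single genes without the share over all genes. The 0.59 of all genes bears on them, as a higher HEC median was common among all genes. The log2 ratio of many single genes lay close enough to 0 for its direction to rest on the summary. Of 51 genes named by the rule, 9 turned with median-of-ratios scaling, 8 with the median over cells and 8 with the mean of log2 values. Without the cells under 100000 reads 5 turned, without the cells of short annotated reads 4, and without the 4 cells poor in Cdh5 and Kdr 2, Cox4i2 from -0.18 to 0.27 and Uqcrb from 0.04 to -0.09. Inside complexes III and V, subunits of different roles stood on different sides of 0. The grouping by role was made after the values were seen, so the medians by role are descriptions.

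**Figure D3:**
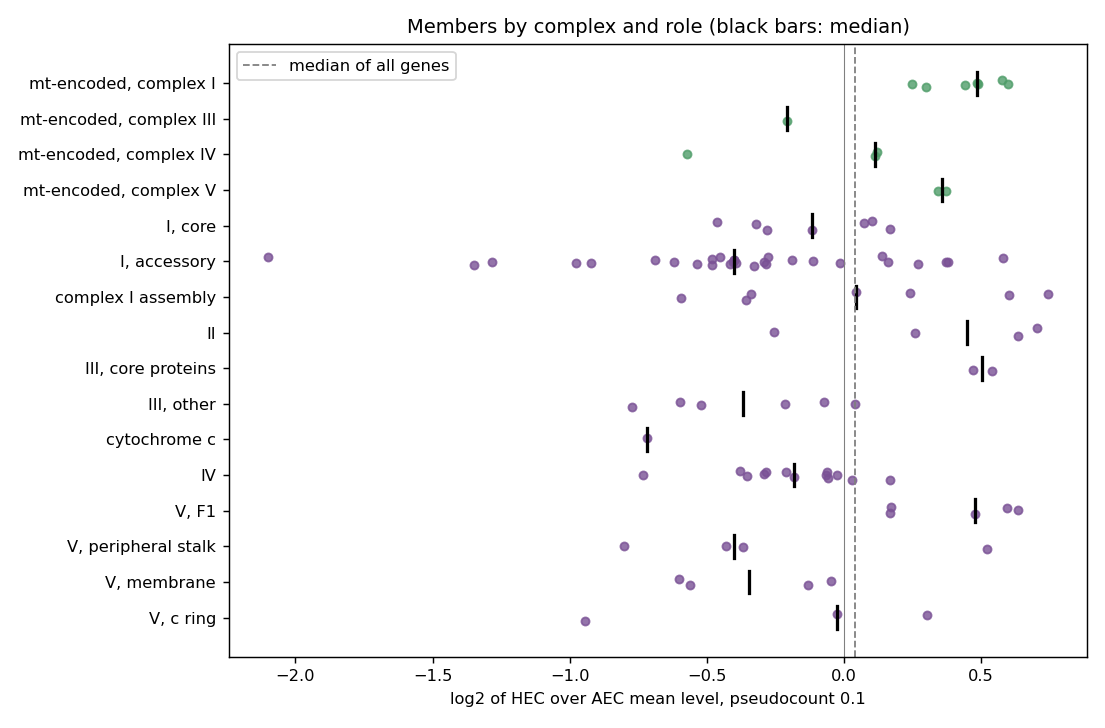
log2 ratio of the HEC over the AEC mean level of each of the 98 members, with 0.1 added to both means, by complex and role; each point is a gene, green for mitochondrially encoded and purple for nuclear genes, the black bar is the median of the group and the dashed line the median of all genes at 0.04. The mitochondrial complex I genes, the complex III core proteins and the F1 genes lie right of 0, most complex I accessory, stalk and membrane genes left of it.

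Of the mitochondrially encoded members, the 7 subunits of complex I all had a higher mean in HEC cells, where 52.4% of all genes did. Their median log2 ratio was 0.49, though mt-Nd3 and mt-Nd4l turned to -0.06 and -0.14 with median-of-ratios scaling. With the median over cells this median was 0.56, where all genes had 0.59. These genes are cut from long precursors, so the 7 are not separate measurements. The 7 are the proton-pumping membrane subunits of the complex. Level of mt-Nd1 was 16.3, 34.5 and 94.3 in the lowest, median and highest AEC cell and 32.8, 67.0 and 94.7 in HEC cells. The ranges overlapped at the top, but 23 of 24 HEC cells lay above the AEC median. Its means of 42.9 (SD 22.3) and 65.0 (SD 17.2) gave a log2 ratio of 0.60, which stayed between 0.56 and 0.67 when any 1 cell was left out.

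mt-Nd6 is the only protein gene on the other strand of the mitochondrial DNA, and it read 2.08, 7.80 and 15.4 in AEC cells against 5.79, 13.6 and 18.4 in HEC cells. Most HEC cells lay in the upper part of the AEC range, with 18 of 24 above the AEC median. Its means were 8.17 (SD 3.55) and 12.2 (SD 4.02), a log2 ratio of 0.58 and a difference barely larger than the larger SD. The annotated mt-Nd6 overlaps the end of mt-Nd5 on the opposite strand over 14 bases, and the sources used here do not say whether the counting used strand. Reads of the opposite strand may thus be counted for mt-Nd6, so its level may not be that of its own RNA alone. The other complex I genes of this genome, mt-Nd2, mt-Nd3, mt-Nd4, mt-Nd4l and mt-Nd5, had log2 ratios of 0.25 to 0.49. Each of these differences was smaller than the larger SD between cells.

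Cytochrome b and the complex IV genes had smaller ratios of the means than every mt-Nd gene, while the medians over cells put all of them above 0, where all genes were at 0.59. mt-Cytb, the electron-carrying core of complex III, read 16.3, 44.8 and 252 in AEC cells and 30.6, 60.6 and 84.1 in HEC cells. The HEC median was the higher one, yet the AEC mean of 68.8 (SD 58.7) exceeded the HEC mean of 59.6 (SD 13.6). AEC 17 made up 15.3% of the AEC sum, and the log2 ratio of -0.21 became -0.03 without it, -0.03 also without the 4 cells poor in Cdh5 and Kdr, 0.32 with pooled reads and 0.44 from the medians. mt-Co3, a structural subunit of the oxidase, read 15.4, 36.9 and 230 in AEC cells and 21.8, 37.3 and 65.3 in HEC cells. Its medians were nearly equal, while the means of 61.7 (SD 54.4) and 41.5 (SD 11.6) gave a log2 ratio of -0.57, or -0.39 without AEC 17 and 0.02 from the medians. mt-Co1 and mt-Co2, which hold the catalytic metal centres, had log2 ratios of 0.12 and 0.11 that turned to -0.26 and -0.25 with median-of-ratios scaling. They were 0.37 and 0.44 from the medians over cells and 0.47 and 0.28 with pooled reads.

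Within a cell, the sum of the 7 mt-Nd genes relative to the sum of mt-Co1, mt-Co2, mt-Co3 and mt-Cytb was 0.245, 0.624 and 1.099 in the lowest, median and highest AEC cell. In HEC cells it was 0.666, 0.850 and 0.930. The HEC cells formed a narrow band, with 15 of 24 AEC cells below all of them and 2 above. This ratio, chosen after the values were seen, does not depend on the scaling of a cell. Without the 4 AEC cells of short annotated reads, 11 of 20 AEC cells lay below the lowest HEC cell, without the cells under 100000 reads 12 of 18, and without the cells poor in Cdh5 and Kdr 12 of 21. AEC 17, AEC 19, AEC 23, AEC 18 and AEC 24, at 0.245 to 0.353, were the lowest, and AEC 19 is one of the cells poor in Cdh5 and Kdr.

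The complex V subunits of this genome, mt-Atp6 and mt-Atp8, had log2 ratios of 0.37 and 0.34, the latter -0.02 with median-of-ratios scaling. Their reading frames overlap on the same RNA, and reads of that RNA can be given to either gene, so their levels are not separate measurements. The shared stretch is shown for this reason; it covers 43 bases of mm10 at chrM:7927-7969 on the plus strand, with the start codon of mt-Atp6 and the stop codon of mt-Atp8 in capitals.

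mt-Atp8 and mt-Atp6 shared bases: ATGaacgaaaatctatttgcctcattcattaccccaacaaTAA

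mt-Nd4l and mt-Nd4 likewise share 7 bases. mt-Atp8 read 16.9, 41.0 and 178 in AEC cells and 21.05, 69.2 and 128 in HEC cells, and mt-Atp6 read 8.67, 25.9 and 82.8 against 20.6, 36.7 and 55.1. For both genes the HEC cells lay inside the AEC range and mostly above its median, in 22 and 20 of 24 cells.

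Complex I takes electrons from NADH through a peripheral arm of core subunits, surrounded by accessory subunits. Among its nuclear genes, 27 of 36 had a lower mean in HEC cells and 7 were at least 1.5-fold lower, while 0 were at least 1.5-fold higher. The 27 are 75% of these genes, where 47.6% of all genes were lower. The 7 are 19.4%, near the 19.3% of all genes that were at least 1.5-fold lower, and 19.3% of all genes were at least 1.5-fold higher. Their sum was 33.8, 68.4 and 164 in the lowest, median and highest AEC cell and 45.3, 65.6 and 83.4 in HEC cells. The medians nearly coincided, and the lower HEC mean, 64.2 (SD 8.37) against 86.6 (SD 37.8), came with 10 AEC cells above the highest HEC cell. The 7 core subunits, which carry the flavin and the iron-sulfur clusters or bind quinone, had a median log2 ratio of -0.12, with Ndufs8 the lowest at -0.46. With median-of-ratios scaling all 7 were lower, with a median of -0.48, and with the median over cells 5 of 7 were higher, with a median of 0.63. The 29 accessory subunits had a median of -0.40. With the median over cells in place of the mean, 16 of these 29 were higher in HEC cells and the median was 0.08. All genes had a median of 0.04, or -0.21 with median-of-ratios scaling and 0.59 with the median over cells. The accessory median, -0.73 with median-of-ratios scaling, lay below that of all genes each time. The side of 0 on which either set lay rests on the summary used.

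The lowest ratios in complex I were those of Ndufs4, Ndufa13 and Ndufa5. Ndufs4, an accessory subunit known from Leigh syndrome when lost, had a log2 ratio of -2.10, but AEC 7, the shallowest cell, read 89.7 which was 71.0% of the sum over AEC cells. Without that cell the ratio was -0.44. Ndufa13, also known as GRIM-19, read 0.680, 2.90 and 18.2 in AEC cells and 0.423, 1.92 and 3.34 in HEC cells. Only 2 of 24 HEC cells were above the AEC median, and the log2 ratio of -1.35 was -1.15 without AEC 23, the highest cell. The AEC mean of 4.59 (SD 4.98) stood against 1.74 (SD 0.843), a difference inside the AEC spread.

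Ndufa5, an accessory subunit of the peripheral arm, read 0.202, 1.88 and 17.3 in AEC cells and 0.493, 1.17 and 2.22 in HEC cells, with a log2 ratio of -1.28, or -0.98 without AEC 24. HEC cells were again low and tight, with 4 of 24 above the AEC median. Ndufb11, Ndufb8, Ndufa11 and Ndufa7, other accessory subunits, were the remaining members of complex I at least 1.5-fold lower, at -0.98, -0.92, -0.69 and -0.62, and 3 to 5 HEC cells lay above the AEC median for each. These 4 were picked out after their values were seen.

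The highest complex I ratios belonged to accessory subunits with annotated lengths of 1442 to 1835 bases: Ndufa9 at 0.58, Ndufab1, the mitochondrial acyl carrier protein, at 0.38 and Ndufa10 at 0.37. Each of these stayed above 0 under every alternative tried, though with the median over cells Ndufa10 was at 0.33, below the 0.59 of all genes. With all reads pooled Ndufa9, Ndufab1 and Ndufa10 were at 0.19, 0.38 and 0.10, where all genes had -0.07. Of the 7 complex I assembly factors used, which help build the complex and leave it, 4 were higher and 3 lower in HEC cells. With the median over cells 6 were higher, and with the mean of log2 values all 7. Their medians were then 0.84 and 0.38, where all genes had 0.59 and 0.41. Ndufaf2 had the highest log2 ratio, 0.75, and means of 0.545 (SD 0.720) and 0.982 (SD 0.727). Ndufaf1 was at 0.60 and Ndufaf8 was at -0.36, or 0.11 from the mean of log2 values and -0.04 without the cells poor in Cdh5 and Kdr. Ndufaf3 was the lowest at -0.59, but AEC 21 gave 34.7% of its sum over AEC cells, and it was at 0.67 from the medians over cells and 0.13 from the mean of log2 values.

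Complex II oxidises succinate and is the only complex with all subunits encoded in the nucleus. Its sum was 0.478, 4.87 and 9.95 in AEC cells and 3.40, 5.44 and 8.82 in HEC cells, with 7 AEC cells below the lowest HEC cell. The membrane anchor genes Sdhc and Sdhd were both at least 1.5-fold higher in HEC cells, at log2 ratios of 0.64 and 0.70, and stayed above 0 under every alternative tried. Sdhd read 0, 0.552 and 3.58 in AEC cells and 0.596, 1.35 and 2.59 in HEC cells. All 24 HEC cells were above the AEC median. Its log2 ratio from the medians over cells was 1.15, where all genes had 0.59. Its means of 0.889 (SD 0.932) and 1.51 (SD 0.578) still differed by less than the AEC spread. The flavoprotein gene Sdha was at -0.25, or 0.28 from the medians over cells, and the iron-sulfur gene Sdhb at 0.26, or 0.00 with median-of-ratios scaling.

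Complex III passes electrons from quinol to cytochrome c. Its large core proteins Uqcrc1 and Uqcrc2, which face the matrix, had log2 ratios of 0.54 and 0.47 and stayed above 0 under every alternative tried. With the median over cells they were at 0.55 and 0.52, below the 0.59 of all genes. With all reads pooled they were at 0.34 and 0.20, where all genes had -0.07. Of its 5 small accessory subunits 4, or 80%, were below 0, where 47.6% of all genes were. Uqcrc1 read 0.0886, 1.57 and 5.44 in AEC cells and 1.28, 2.35 and 4.70 in HEC cells, with means of 1.76 (SD 1.35) and 2.61 (SD 0.989). Of the HEC cells 21 lay above the AEC median. Uqcr10, a small subunit, read 0.398, 3.86 and 22.3 in AEC cells and 1.38, 3.27 and 7.22 in HEC cells, a log2 ratio of -0.77. The acidic hinge protein gene Uqcrh read 1.61, 4.52 and 27.4 against 0.429, 3.82 and 6.95, a ratio of -0.52, or -0.27 without AEC 1. For both small subunits the HEC cells lay mostly inside the AEC range, with 8 and 5 of 24 above the AEC median. Uqcrq was at -0.60, Uqcr11 at -0.22, Uqcrb at 0.04 and the Rieske iron-sulfur gene Uqcrfs1 at -0.07.

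Within a cell, Uqcrc1 and Uqcrc2 together made up 0.00912, 0.125 and 0.482 times the level of the other nuclear complex III genes in the lowest, median and highest AEC cell, and 0.109, 0.237 and 0.517 times in HEC cells. Of the AEC cells 11 lay below every HEC cell, 7 of 18 without the cells under 100000 reads and 10 of 21 without the cells poor in Cdh5 and Kdr. The annotated transcripts of the core proteins are 1659 and 1855 bases long and those of the other complex III genes 441 to 1363 bases, so length moved with this ratio, and its part was not tested.

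Cycs, which encodes the cytochrome c that carries electrons from complex III to complex IV, read 0.269, 4.56 and 15.7 in AEC cells and 1.19, 2.80 and 5.80 in HEC cells. The HEC cells sat in the lower part of the AEC range, with 5 of 24 above its median. The means of 5.41 (SD 3.69) and 3.25 (SD 1.34) gave a log2 ratio of -0.72, which stayed between -0.77 and -0.60 when any 1 cell was left out and between -1.10 and -0.45 under the other alternatives. Its annotated transcripts have a mean length of 3123 bases, among the longest of the members.

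Promoters of respiratory genes are known for sites of NRF1, of the ETS factor GABP and of YY1. RefSeq promoters of build GRCm38.p6, 300 bases long with 50 of them after the annotated start, matched 70 of the 85 nuclear members used by symbol. The NRF1 core GCATGCGC was found on either strand in 17.1% of these and in 2.80% of all 27025 promoters. The ETS core CCGGAAG was found in 24.3% and 9.12%, and the YY1 core AAGATGGC in 12.9% and 2.88%. Among the 6816 promoters of genes that reached the mean of 0.1 here, these shares were 6.37%, 21.5% and 5.68%. The median log2 ratio of members with the NRF1 core was -0.09 and of those without it -0.29. For the ETS core these were -0.22 and -0.28, and for the YY1 core -0.40 and -0.28.

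Members with the same core and opposite ratios are shown to let the promoters be compared: Uqcrc1 (chr9:108936398-108936697, plus strand, log2 ratio 0.54) and Cycs (chr6:50566520-50566819, minus strand, -0.72) with the NRF1 core, Sdhd (chr9:50603800-50604099, minus strand, 0.70) and Uqcrh (chr4:116075021-116075320, minus strand, -0.52) with the ETS core. Capitals mark the matches. They were chosen after the values were seen.

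Uqcrc1: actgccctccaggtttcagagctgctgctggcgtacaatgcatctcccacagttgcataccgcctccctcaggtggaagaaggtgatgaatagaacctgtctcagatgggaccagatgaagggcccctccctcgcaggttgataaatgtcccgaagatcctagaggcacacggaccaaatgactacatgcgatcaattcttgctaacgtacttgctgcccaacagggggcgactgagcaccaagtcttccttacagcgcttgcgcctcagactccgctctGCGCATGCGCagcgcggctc
Cycs: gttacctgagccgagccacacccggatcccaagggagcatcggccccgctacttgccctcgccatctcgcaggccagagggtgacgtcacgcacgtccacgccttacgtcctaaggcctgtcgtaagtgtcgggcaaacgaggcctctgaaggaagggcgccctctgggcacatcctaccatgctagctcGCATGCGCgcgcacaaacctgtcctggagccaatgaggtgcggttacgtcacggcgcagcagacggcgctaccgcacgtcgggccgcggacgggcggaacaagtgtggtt
Sdhd: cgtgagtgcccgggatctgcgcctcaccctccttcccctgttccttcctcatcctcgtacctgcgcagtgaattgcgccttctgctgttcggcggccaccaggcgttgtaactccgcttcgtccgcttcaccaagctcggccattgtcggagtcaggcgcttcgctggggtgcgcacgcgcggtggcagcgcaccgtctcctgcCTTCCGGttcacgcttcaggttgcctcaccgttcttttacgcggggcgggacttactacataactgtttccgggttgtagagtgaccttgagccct
Uqcrh: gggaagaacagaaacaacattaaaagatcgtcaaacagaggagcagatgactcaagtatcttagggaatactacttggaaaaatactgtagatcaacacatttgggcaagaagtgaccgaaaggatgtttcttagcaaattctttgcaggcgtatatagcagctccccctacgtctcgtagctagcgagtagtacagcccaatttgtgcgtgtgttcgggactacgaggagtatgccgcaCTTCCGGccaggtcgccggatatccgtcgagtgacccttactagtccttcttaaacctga

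In Uqcrc1 2 matches overlap, on opposite strands, beginning 30 and 32 bases past the start, and the Cycs match begins 60 bases before the start. In Sdhd and Uqcrh the ETS core reads on the reverse strand, 46 and 10 bases before the start. That the same letters stand in promoters of genes on both sides of 0 follows from how these promoters were chosen.

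Complex IV reduces oxygen to water. Of its 13 nuclear genes used, counting Ndufa4, which is known to belong to this complex, 11 had a lower mean in HEC cells and 1, Cox4i1, was at least 1.5-fold lower. These are 84.6% and 7.69%, where 47.6% and 19.3% of all genes were. With median-of-ratios scaling all 13 were lower, and with the median over cells 7 of 13 were higher. Their medians were then -0.38 and 0.004, where all genes had -0.21 and 0.59. Cox4i1, the ubiquitous form of the largest nuclear subunit, read 2.39, 10.8 and 60.3 in AEC cells and 4.26, 9.23 and 13.6 in HEC cells. Of the HEC cells 5 were above the AEC median, and AEC 18, the highest cell, gave 16.6% of the sum over AEC cells. The log2 ratio was -0.73, or -0.53 without that cell. Cox6a1 was at -0.35 and Ndufa4 at -0.38, while Cox7b at 0.17 and Cox7a2 at 0.03, which turned to -0.16 and -0.26 with median-of-ratios scaling, and Cox6c at -0.02 were the highest.

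Several complex IV subunits have paralogs known from muscle, lung or low oxygen, and the common forms made up almost all reads in both groups. Cox4i2, the form known from lung and low oxygen, held 1.56% of the Cox4i1 and Cox4i2 sum in AEC cells and 2.15% in HEC cells, and its own log2 ratio was -0.18, or 0.27 without the cells poor in Cdh5 and Kdr. In that share the median cell was at 0.0187% and 0.442%. Cox6b2, known from testis, held 0.422% and 1.34% of its pair, with 88.3% of its summed AEC level in AEC 7. Cox7a1, known from muscle, had 0 of 17663 reads of its set in AEC cells, which allows up to 0.0209% by the exact Clopper-Pearson 95% interval, and 37 of 22948 reads in HEC cells. Cox8b, also from muscle, had 0 and 2 reads. Ndufa4l2, a target of hypoxia-inducible factor known from pericytes and vascular cells, had 423 reads in AEC cells, with 68.0% of the summed level in AEC 20, and 6 reads in HEC cells. AEC 20 is a cell with a mesenchymal marker sum of 146. Paralogs with similar sequence may exchange reads in the counting, so the small shares are uncertain.

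Complex V couples proton flow through a membrane sector with a ring of c subunits to the F1 head, which makes ATP, and a peripheral stalk holds the head still. All 5 F1 genes had a higher mean in HEC cells, where 52.4% of all genes did, with a median log2 ratio of 0.48. Atp5d and Atp5e turned to -0.10 and -0.21 with median-of-ratios scaling, where all genes had a median of -0.21. Atp5c1, the gamma subunit that turns within the head, read 0.269, 2.84 and 6.20 in the lowest, median and highest AEC cell and 2.32, 4.76 and 8.83 in HEC cells. Of the HEC cells 23 lay above the AEC median. Its means of 3.30 (SD 1.68) and 5.03 (SD 1.44) differed by more than either SD, with a log2 ratio of 0.59 that stayed above 0 under every alternative tried. The ratio fell to 0.17 with all reads pooled, where all genes had -0.07. From the medians over cells it was 0.73, where all genes had 0.59.

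Atp5a1, the alpha subunit, read 0.795, 4.21 and 9.72 in AEC cells and 1.82, 6.48 and 11.96 in HEC cells, a log2 ratio of 0.63. With all reads pooled this ratio was 0.14, where all genes had -0.07. Atp5b, the catalytic beta subunit, read 1.61, 6.80 and 13.6 against 5.51, 10.8 and 13.9, a ratio of 0.48. For each of these, 22 of 24 HEC cells lay above the AEC median, and the lowest AEC cells lay well below the lowest HEC cell. The differences of the means, 4.301 (SD 2.49) against 6.73 (SD 2.33) and 7.50 (SD 3.54) against 10.5 (SD 2.29), were slightly smaller than the AEC spread. Atp5d and Atp5e, the delta and epsilon subunits, were both at 0.17, and 20 and 23 HEC cells lay above their AEC medians.

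Of the other 11 nuclear genes of the synthase 9 had a lower mean in HEC cells, where 47.6% of all genes did. In the peripheral stalk Atp5h, Atp5j and Atp5o were at -0.80, -0.43 and -0.37. Atp5f1, the b subunit, was at 0.52, or 0.02 with all reads pooled. Atp5h read 1.46, 5.92 and 34.3 in AEC cells and 1.59, 4.04 and 8.38 in HEC cells. The HEC cells were low within the AEC range, and the ratio was -0.58 without AEC 12. All 4 membrane genes, Atp5j2, Atp5mpl, Atp5k and Atp5l, were below 0, from -0.60 to -0.05. With the median over cells 2 of 4 were above 0, where all genes had a median of 0.59. Atpif1, the gene of the ATPase inhibitor that falls outside the symbol rule, was at -0.23, with medians of 5.49 and 5.51.

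The c subunit is made from several genes with the same mature protein. Atp5g2 had a log2 ratio of -0.94, but AEC 10 read 84.1, or 39.4% of the sum over AEC cells, and without it the ratio was -0.29. Atp5g1 was at 0.30, or -0.09 with median-of-ratios scaling, and Atp5g3 at -0.03. As shares of the 3 genes' sum, Atp5g1, Atp5g2 and Atp5g3 held 24.6%, 55.2% and 20.2% in AEC cells and 38.7%, 36.0% and 25.2% in HEC cells. Per kilobase of transcript, these were 10.1%, 65.5% and 24.4% against 17.8%, 48.03% and 34.2%. No other level here is divided by length, and for full-length cDNA reads the shares by read are the ones to use. The HEC minus AEC difference of the Atp5g2 share was -19.1 points, and -7.41 points without AEC 10. With all reads pooled over cells it was 2.50 points, from 38.3% to 40.8%, so its direction rests on the weight given to each cell.

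Within a cell, the F1 sum relative to the sum of the other nuclear complex V genes was 0.124, 0.492 and 0.808 in the lowest, median and highest AEC cell. It was 0.488, 0.715 and 1.17 in HEC cells. The groups overlapped only in part: 12 of 24 AEC cells lay below every HEC cell, and no AEC cell lay above the highest. The means of 0.482 (SD 0.181) and 0.758 (SD 0.151) differed by more than either SD. Leaving out the 6 AEC and 6 HEC cells with the fewest genes, 14 of 18 AEC cells lay below the lowest HEC cell, without the 4 cells of short annotated reads 8 of 20, and without the cells poor in Cdh5 and Kdr 11 of 21. The ratio was chosen after the values were seen, and AEC 12, AEC 24 and AEC 10 were the lowest.

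F1 transcripts are longer than most of their partners, with a median annotated length of 1167 bases against 484 for the membrane genes, and length moved with the ratios over all nuclear members. Across the 85 members the Spearman correlation of log2 ratio and transcript length was 0.32, where members share cells and libraries. Of the 20 members under 600 bases 16 were lower in HEC cells, against 53.9% of all genes of that length, and of the 25 from 600 to 900 bases 22 were, against 59.7%. Of the 9 members from 1800 to 3000 bases 6 were higher, with a median of 0.30, where all genes of that length had 0.08. The part of length in these differences was not tested.

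**Figure D4:**
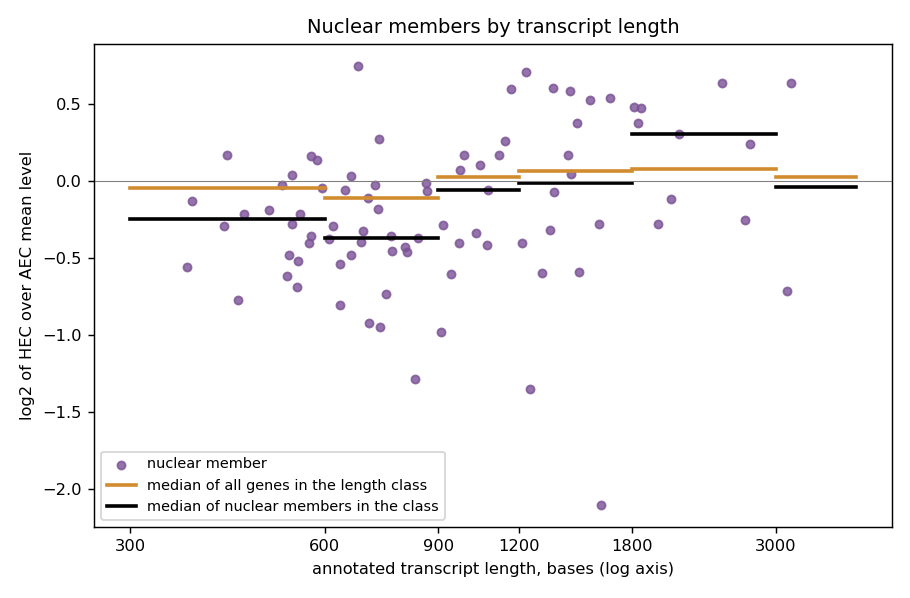
log2 ratio of the HEC over the AEC mean level of each nuclear member against its annotated transcript length in bases (log axis); purple points are the 85 members, black lines the median of members and orange lines the median of all genes in each length class. Members under 900 bases lie mostly below 0 with medians of -0.25 and -0.37, lower than all genes of those lengths at -0.05 and -0.11.

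Full-length reads also separate the transcripts of a gene. Shares were compared for genes with at least 2 transcripts and a mean level of 1 or more in both groups, which 62 members met. A transcript share differed by at least 10 points for 8 of these, where 26.7% of the 1032 genes compared in all did so, and every share was within 5 points for 46. The median of the largest difference per gene was 1.69 points for members and 3.86 for all genes. Transcripts annotated as protein coding made up a median of 98.2% of the nuclear members' level in AEC cells and also in HEC cells. In other protein-coding genes these medians were 92.0% and 92.7%. Retained-intron transcripts took 0.323% and 0.616% of the members' level in the median AEC and HEC cell.

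Atp5d, an F1 gene, kept its direction under each alternative, but not its size. Atp5d-203, which begins further upstream than Atp5d-201 and has the same coding sequence, held 47.0% of the gene's level over AEC cells and 32.3% over HEC cells. In cells with at least 10 reads of the gene its share was 0.503%, 40.9% and 60.7% in the lowest, median and highest of 18 AEC cells and 10.2%, 30.3% and 57.2% in 24 HEC cells. The cells overlapped over most of the range. The difference was -14.7 points and stayed between -18.03 and -11.4 when any 1 cell was left out. Leaving out the 6 AEC and 6 HEC cells with fewest genes, it was -6.48 points, under the 10 points used here. Atp5d-201 held 53.0% and 66.0%, a difference of 13.1 points, or 4.42 without those cells.

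The 4371-base transcript of Ndufb2, a complex I accessory gene, ends in a long last exon and held 43.6% of the level over AEC cells and 32.9% over HEC cells. Its share was 20%, 45.7% and 61.9% in the lowest, median and highest of 18 AEC cells and 12.5%, 30.9% and 52.9% in 24 HEC cells. HEC cells were lower as a group, and the median share differed by more than the SD of 11.98 points between AEC cells. The 455-base transcript, with the same coding sequence, had medians of 54.3% and 68.5%. This gene and Cox4i1 were picked out after their values were seen.

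Other shifts followed a few cells. The 927-base transcript of Ndufv2, a core subunit gene, has a shorter annotated coding sequence than the 1697-base one and held 64.2% over AEC cells and 22.9% over HEC cells, but 71.3% of its summed AEC level was in AEC 10. Among cells with at least 10 reads the median share was 0.0994% in AEC cells and 25.2% in HEC cells, the reverse direction. The 1698-base transcript of Ndufs4 held 94.1% and 81.0%, and its difference of -13.1 points was 1.33 points without AEC 7. Uqcrq-203, shorter than Uqcrq-201 with the same coding sequence, held 23.9% and 11.9%, with cell medians of 4.75% and 11.6%. The 765-base transcript of Cox4i1 held 17.8% and 11.4%, with cell medians of 5.97% and 10.6%.

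**Figure D5:**
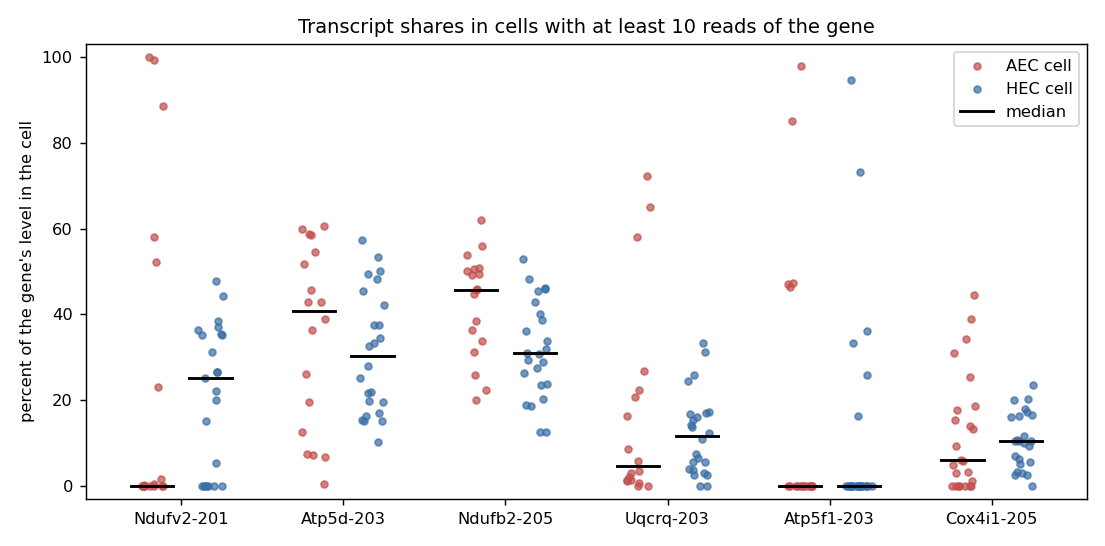
Share of a transcript in its gene's level, in percent, in each cell with at least 10 reads of the gene, for 6 transcripts of members; red points are AEC cells, blue points HEC cells, and the black bar is the median. For Atp5d and Ndufb2 the AEC median is the higher one, for Ndufv2, Uqcrq and Cox4i1 the HEC median, and for Atp5f1 both medians are 0.

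The 1311-base transcript of Atp5f1, the stalk gene, is annotated as a target of nonsense-mediated decay and has an extra exon with an early stop. It held 23.5% of the gene's level over AEC cells and 11.7% over HEC cells. It was at 0 in the median cell of both groups, with the highest cell at 97.9% and 94.5%. The exon is shown because a read is told apart from the main transcript by it. The shown piece lies at chr3:105957934-105958036 in mm10 on the minus strand, with the stop codon in capitals.

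Atp5f1 extra exon: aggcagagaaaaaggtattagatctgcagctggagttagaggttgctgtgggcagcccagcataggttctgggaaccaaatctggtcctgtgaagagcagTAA

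Gene lists around the respiratory chain are set beside all genes, of which 52.4% had a higher mean in HEC cells and 19.3% were at least 1.5-fold higher. Of 17 genes of the tricarboxylic acid cycle, which feeds NADH and succinate to complexes I and II, 14 had a higher mean in HEC cells, or 82.4%, and 5 were at least 1.5-fold higher, or 29.4%, with a median log2 ratio of 0.32. Their sum was 8.56, 16.3 and 28.6 in the lowest, median and highest AEC cell and 15.7, 20.8 and 31.0 in HEC cells, and 10 AEC cells lay below every HEC cell. The log2 ratio of the means of that sum was 0.38, or 0.08 with median-of-ratios scaling. Mdh2, malate dehydrogenase, had means of 3.23 (SD 2.31) and 5.30 (SD 2.09), Fh1, fumarate hydratase, 0.697 (SD 0.634) and 1.15 (SD 0.852), and Suclg2, a succinate-CoA ligase subunit, 0.327 (SD 0.441) and 0.698 (SD 0.663). Each difference was smaller than the larger SD.

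The 78 mitochondrial ribosomal protein genes were split evenly, 39 higher and 39 lower, with a median of 0.00. By absolute ratio, the first genes of this list that reach a mean of 0.5 were Mrpl41 at -1.12, Mrpl37 at 1.03 and Mrpl4 at 0.95. Of 20 genes used of mitochondrial gene expression 13 were higher, or 65% against 52.4% of all genes, with Lrpprc, which stabilises mitochondrial mRNA, at 0.88, Ssbp1 at -0.29 and Hsd17b10 at 0.26. Of 23 import genes 15 were higher, or 65.2%, with Timm8a1 at 1.56, Timm17b at -0.94 and Timm10b at -0.87, and of 36 other assembly factors 22 were higher, or 61.1%, with Cox19 at -1.48, Sdhaf4 at -0.64 and Cox16 at -0.50. Among 8 nuclear regulators used 3 were higher. Hif1a was at -2.18 and 70.4% of its summed AEC level was in AEC 1, with Yy1 at 0.48 and Myc at -0.39, while the coactivator gene Ppargc1a was under the minimum level.

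Ldha, which turns pyruvate to lactate, averaged 4.39 (SD 4.33) over AEC and 7.97 (SD 1.75) over HEC cells, or 0.85 as a log2 ratio. Of the 6 genes used of the list of hypoxia and anaerobic isoforms it was the highest, with Slc2a1, the glucose transporter, at 0.16 and Higd1a at -0.26, and the list was split 3 to 3. Genes of dissociation stress, all 11 of which had a higher mean in HEC cells, summed to 6.74 in the median AEC cell and 27.0 in the median HEC cell. Their Spearman correlation with the mitochondrially encoded sum was -0.46 over AEC cells and 0.34 over HEC cells, and their part in the levels was not tested.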

How the data were processed

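Each of 48 cells has a table of signal values per transcript. As deposited by the authors, a signal is the reads of a transcript per 10000 reads of the cell, and 100% of the values came out as whole reads within 0.01 of a read, which gave the depth. The submitters' processing notes name minimap2 2.18-r1015, Salmon 1.1.0 and build mm10. They give no role for these tools, and strand use and any filter on transcripts are not known here. Nanopore reads can end early, so short transcripts may be favoured and reads may be given to a shorter transcript.

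Transcripts were matched to GENCODE M21 (52799 of 52927) and summed by gene with Python 3.11.15, numpy 2.4.6, pandas 2.3.3 and scipy 1.17.1. The log2 ratio of genes was tested on simulated reads with known folds. Genes averaging 0.1 or more over all cells were used, with a pseudocount of 0.1. Cells are not replicates and the animals are not named, so no test was run and no p-value is given. Intervals are exact 95% Poisson or Clopper-Pearson intervals and cover counting error only. Cell numbers in the titles only name cells. The members, gene lists and rules were chosen with earlier results of these data known. Named were the mitochondrial genes, the 3 highest and 3 lowest ratios of each complex with a mean of at least 0.5, the paralogs, and up to 3 genes of each other list; genes outside this rule are named to complete a role group. The grouping by role and the within-cell ratios were chosen after the values were seen. Ndufa4 and Ndufa4l2 were counted with complex IV, and the Ndufaf assembly factors, which the symbol rule takes in, apart from complex I. Alternatives covered scaling, pseudocount, filter, summary over cells, transcript type and leaving out cells. The results of 1 member gene are not reported here on their own.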

Additional observations from a re-analysis of the deposited data

How the results depend on the processing

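Many directions rest on the processing. Over 84 results other than counts, 79 of 914 values under another scaling, summary, filter or set of cells lay on the other side of 0, in 36 results, and 37 of 4032 with a single cell left out, in 10. All but 7 of these began as differences under 1.5-fold, or under 10 points for a share. The other 7 are given below. Of all 5121 values, counts included, 17 moved by more than 1.5 times for a count or the SD between cells for another value. The count of 7 members at least 1.5-fold higher in HEC cells became 1 with a pseudocount of 1, 0 with median-of-ratios scaling, 27 with the median over cells and 26 with the mean of log2 values. It was 13 when the 4 cells poor in Cdh5 and Kdr were left out, 4 without cells under 100000 reads, 11 without both the former and the 6 cells of each group with fewest genes, and 4 (without AEC 7) to 10 (without AEC 6) when single cells were left out. The count of 15 lower became 43, 3 and 4 under those scaling and summary choices, 25 without the cells with fewest genes, 24 without cells under 100000 reads and 25 without both sets. Under those scaling and summary choices the median log2 ratio of all genes itself moved, from 0.04 to -0.21, 0.59 and 0.41. Neither count is set against the share of all genes under the same choice, which was not counted. The 8 genes with a shifted transcript share became 4 with the median over cells and 5 with protein-coding transcripts only. With that median the shares of the Ndufv2 transcripts differed by 25.1 and -25.1 points, in the reverse direction, as did Uqcrq-201 at -9.10 and Uqcrq-203 at 6.88. The Ndufs4 share difference was 0.790 points without the cells with fewest genes and ran from -14.7 to 1.33 over single cells left out, the upper end without AEC 7. The Atp5g2 share difference was 2.50 points with pooled reads. The cause of these changes was not tested. The alternatives without cells of short annotated reads or without both sets, those for paralog shares and those for within-cell ratios and roles were added after seeing the data. No paired analysis was possible because no result comes from a test and the cell numbers pair nothing. Depth limits the shallow AEC cells most: in the cell of 13261 reads, 1 read is a level of 0.754.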

Other observations

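The mitochondrial genome also gave reads of its ribosomal and transfer RNAs, which are not part of the protein-coding set. The sum of both ribosomal RNAs was 32.5, 73.3 and 226 reads per 10000 in the lowest, median and highest AEC cell and 45.3, 99.7 and 349 in HEC cells. The groups overlapped over most of this range, with 5 AEC cells below every HEC cell. mt-Rnr2, the large ribosomal RNA, had means of 64.3 (SD 28.4) and 105 (SD 76.2), and mt-Rnr1, the small one, 20.3 (SD 25.2) and 17.8 (SD 12.1). The transfer RNAs summed to a mean of 52.1 (SD 23.5) and 63.5 (SD 12.99). The library selected polyA RNA, so these values do not measure the amount of ribosomal or transfer RNA.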
